A study of Nannochloropsis gaditana with 4 samples.

Results

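SAMPLE 4 and SAMPLE 2 are cultures of the marine microalga *Nannochloropsis gaditana* that were both grown under flashing light, and here SAMPLE 4 is set against SAMPLE 2. They were taken by their column names and are 2 of the 4 samples of the study, which also holds a further flashing-light sample, SAMPLE 3, and a continuous-light control. Strain CCAP 849/5 was grown as a batch culture for 13 days in flasks at a working volume of 250 mL, mixed with CO2-enriched air. All 3 flashing-light cultures had a duty cycle of 0.05, a flash intensity of 6000 µmol s-1 m-2 and a time-averaged light of 300 µmol s-1 m-2. They differed in flash frequency (5, 50 or 500 Hz). The control received 300 µmol s-1 m-2 without interruption. No source used here ties SAMPLE 4, SAMPLE 2 or SAMPLE 3 to one of the frequencies. The comparison therefore asks how far transcript levels differed between cultures of equal mean light and unlike flash rate, with the order of the rates unknown. Each condition is 1 sample, measured on pooled RNA according to the design text of the series.

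Light delivered in flashes alternates excess with darkness. An algal cell meets excess light with its xanthophyll cycle, in which violaxanthin is de-epoxidised and absorbed energy is released as heat. It adjusts the size of its antenna through chlorophyll and chlorophyll-binding proteins. *Nannochloropsis* is known for storing carbon as triacylglycerol, which is built from fatty acids made in the plastid and glycerol 3-phosphate. The measured genes cover these pathways, ADP-glucose synthesis and the use of nitrate.

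All 44 genes of the real-time PCR panel were followed in both samples, 36 targets and 8 reference genes. A normalized quantity is the amount of a transcript as a ratio to that gene's maximum over 12 values (4 samples, 3 repeats), divided by a factor from the reference genes CYP (cyclophilin) and PAP1 (a phosphatidic acid phosphatase). It compares samples within a gene and not one gene with another. PAP1 was counted as a reference gene as part of this factor, although its identifier lacks the r prefix of the other 7. A change is the difference of the mean log2 quantity, SAMPLE 4 minus SAMPLE 2. Its error is the propagated SD, which joins the SDs of the 3 repeats in SAMPLE 4 and in SAMPLE 2 (square root of the sum of squares). No source used here says whether repeats were reverse transcriptions, wells or another step. Since the RNA was pooled, the spread is read as technical and not as one between cultures. With 1 sample a condition the conditions were not tested against each other. A gene counted as changed when it differed by at least 2-fold and by more than 2 propagated SDs, called the rule of size.

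The reference factor ran from 0.757 to 1.49 over the 3 repeats of SAMPLE 4 and from 0.814 to 0.908 over those of SAMPLE 2. Before normalization, 25 of the 44 genes had their highest value in repeat 2 of SAMPLE 4, the repeat with the factor of 1.49. After normalization the median SD of the repeats over the targets was 0.14 log2 in SAMPLE 4 and 0.10 in SAMPLE 2. The number of cycles behind a value is unknown.

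The transcripts called lower in SAMPLE 4 belong to the antenna and chlorophyll synthesis (VCP1, POR1), the xanthophyll cycle (VDE2), glycerolipid synthesis (GPD1, PAP2) and fatty acid synthesis (HAD), and the one called higher is nitrate reductase (NR). By the rule of size 6 of the 36 targets (16.7%) were lower and 1 target (2.78%) was higher. Without repeat 2 of SAMPLE 4 the counts were 5 lower and 1 higher. Changes exceeded 2 propagated SDs downward in 16 targets (44.4%) and upward in 4 (11.1%). All 3 repeats of SAMPLE 4 lay below all 3 of SAMPLE 2 in 19 targets (52.8%) and above them in 6 (16.7%). The median target stood at −0.23, and at 0.58 with the ubiquitin family gene UFP alone as reference. Just inside the 2-fold bound stood HAD at −1.02, and just outside it AGPase1 at 0.81 and MCT at −0.79.

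**Figure D1:**
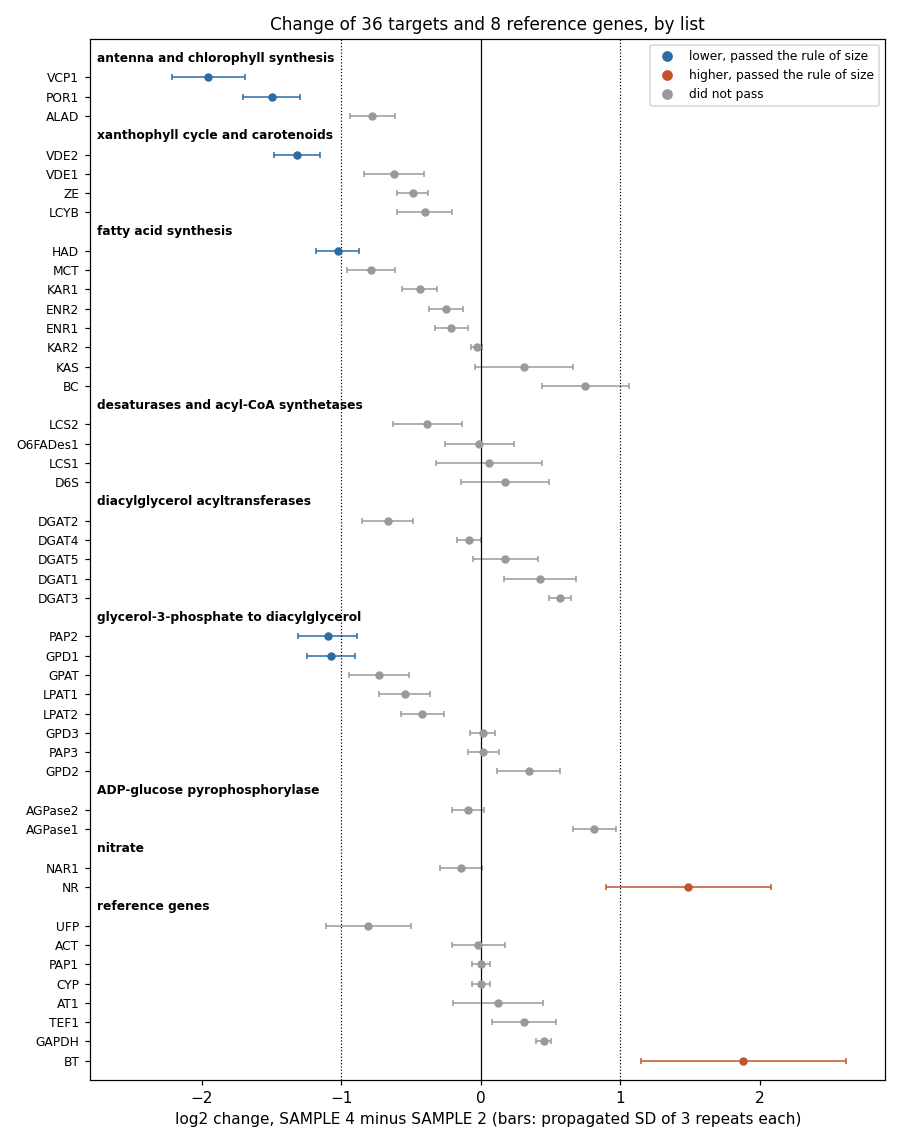
Log2 change of each of the 44 genes (x axis, SAMPLE 4 minus SAMPLE 2; bars show the propagated SD of 3 repeats in each sample), grouped by list, with dotted lines at 2-fold. The 6 lower targets run from VCP1 at −1.95 to HAD at −1.02 and NR stands at 1.49; 24 of the 36 targets lie left of 0, although with UFP alone as reference the median target lies right of it, at 0.58.

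The genes of the antenna and of chlorophyll synthesis had the lowest median of the 8 lists, −1.50 over 3 genes, beside −0.23 over all 36 targets. VCP1, the violaxanthin-chlorophyll protein that carries pigments in the light-harvesting antenna, had normalized quantities of 0.314, 0.238 and 0.312 in SAMPLE 4, against 1.02, 1.10 and 1.21 in SAMPLE 2. The samples lay far apart, with no repeat of SAMPLE 4 reaching any of SAMPLE 2. VCP1 stood at 0.258-fold in SAMPLE 4, a log2 change of −1.95 ± 0.26. Of the 7 targets past the rule it alone also passed in each of the 26 alternative calculations other than thresholds, from −3.84 with beta tubulin BT alone as reference to −1.15 with UFP alone. The 26 are not all independent. MCT as deposited leaves every other gene at its main value, and CYP and PAP1 alone are the parts of the main factor. For VCP1 the deposited fold table repeats the differences within repeat numbers.

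POR1, the light-dependent protochlorophyllide oxidoreductase that makes chlorophyllide, had 0.416, 0.326 and 0.375 in SAMPLE 4, against 1.12, 1.06 and 0.967 in SAMPLE 2. The repeats did not overlap, and POR1 was lower at 0.354-fold, a log2 change of −1.50 ± 0.20. It passed in 25 of the 26 alternatives and stood at −0.69 with UFP alone. ALAD, which forms porphobilinogen at an early step of tetrapyrrole synthesis, had 0.660, 0.552 and 0.653 in SAMPLE 4, against 1.12, 1.02 and 1.05 in SAMPLE 2. These repeats were also apart, but the change of −0.78 ± 0.16 was under 2-fold, and with UFP alone ALAD stood at 0.03. Within this list the size of the difference thus ran from 0.258-fold for VCP1 to 0.584-fold for ALAD, and 2 of 3 members passed.

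In the xanthophyll cycle and carotenoid list, 1 of 4 genes was lower by the rule of size and all 4 had repeats apart. Its median was −0.55, and 0.25 with UFP alone as reference. VDE2, a violaxanthin de-epoxidase that turns violaxanthin into zeaxanthin in excess light, had 0.422, 0.406 and 0.493 in SAMPLE 4, against 1.04, 1.10 and 1.15 in SAMPLE 2. Both samples were tight and well apart, and VDE2 stood at 0.401-fold, a log2 change of −1.32 ± 0.17. It did not pass with no reference, at −0.99, or with UFP alone, at −0.51. The other de-epoxidase gene, VDE1, had 0.700, 0.541 and 0.614 in SAMPLE 4, against 1.00, 0.973 and 0.866 in SAMPLE 2. Its change of −0.62 ± 0.22 did not pass. ZE, given in the tables as a zeaxanthin de-epoxidase, stood at −0.49 ± 0.11 and lycopene beta cyclase LCYB, which closes the rings of beta-carotene, at −0.40 ± 0.20.

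Fatty acid synthesis, with 8 genes, had 1 lower member by the rule of size and a list median of −0.23, which was that of all targets. It changed sign with UFP alone (0.58), with no reference (0.10) and after centring on the median target (0.057). HAD, the 3-hydroxyacyl-ACP dehydratase of the elongation cycle, had 0.507, 0.475 and 0.550 in SAMPLE 4, against 0.948, 1.10 and 1.07 in SAMPLE 2. The repeats were apart and HAD stood at 0.492-fold, a log2 change of −1.02 ± 0.15. This call lies at the bound, and HAD did not pass in 8 of the 26 alternatives. It stood at −0.97 without repeat 2 of SAMPLE 4, at −0.98 without repeat 2 of SAMPLE 2 and at −0.93 without repeat 2 of both. It stood at −0.997 with an amplification base of 2, at −0.92 with a base of 1.9, at −0.69 with no reference, at −0.74 after centring and at −0.22 with UFP alone.

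The other members of this list stood closer to no change than HAD. MCT, the transacylase that loads malonyl groups onto acyl carrier protein, had 0.568, 0.598 and 0.700 in SAMPLE 4, against 1.12, 1.01 and 1.08 in SAMPLE 2. Its change was −0.79 ± 0.17 with repeats apart, from values recomputed here because the normalized row of MCT holds the reference factor. The ketoacyl-ACP reductases, which take the first reducing step of the elongation cycle, were unlike each other, with KAR1 at −0.44 ± 0.12 and KAR2 at −0.03 ± 0.04. The enoyl-ACP reductases, which take the last one, were alike, with ENR1 at −0.21 ± 0.12 and ENR2 at −0.25 ± 0.12.

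BC, the ligase that attaches biotin to acetyl-CoA carboxylase, differed the other way. It had 0.531, 0.673 and 0.691 in SAMPLE 4, against 0.311, 0.404 and 0.416 in SAMPLE 2. Every repeat of SAMPLE 4 was above those of SAMPLE 2, and the change of 0.75 ± 0.31 was under 2-fold. With BT alone as reference it stood at −1.13. KAS, a ketoacyl-CoA synthase by its deposited name, was at 0.31 ± 0.35 with overlapping repeats.

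The glycerolipid list, from glycerol 3-phosphate to diacylglycerol, had a median of −0.48 over 8 genes (0.33 with UFP alone), and 2 members were lower by the rule of size. GPD1, a glycerol-3-phosphate dehydrogenase that supplies the glycerol backbone, had 0.464, 0.448 and 0.498 in SAMPLE 4, against 1.12, 0.914 and 0.943 in SAMPLE 2. SAMPLE 2 was high in all repeats and most in repeat 1. GPD1 stood at 0.475-fold, a log2 change of −1.07 ± 0.17. It did not pass in 6 of the 26 alternatives, at −0.98 without repeat 1 of SAMPLE 2, −0.97 without repeat 1 of both, −0.96 with a base of 1.9, −0.74 with no reference, −0.79 after centring and −0.27 with UFP alone. The other genes of the same name did not follow, with GPD2 at 0.34 ± 0.22 and GPD3 at 0.01 ± 0.09.

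PAP2, a phosphatidic acid phosphatase that releases diacylglycerol, had 0.430, 0.475 and 0.516 in SAMPLE 4, against 1.06, 1.10 and 0.885 in SAMPLE 2. The repeats were apart and PAP2 stood at 0.468-fold, a log2 change of −1.10 ± 0.21. It did not pass in 5 of the 26 alternatives, at −0.997 without repeat 1 of both samples, −0.99 with a base of 1.9, −0.76 with no reference, −0.81 after centring and −0.29 with UFP alone. PAP3 was at 0.02 ± 0.11, and PAP1, as part of the reference factor, was left out of this list. GPAT, which adds the first acyl chain to glycerol 3-phosphate, had 0.544, 0.561 and 0.688 in SAMPLE 4, against 0.918, 0.971 and 1.08 in SAMPLE 2, a change of −0.73 ± 0.22 with repeats apart. The acyltransferases of the second chain, LPAT1 at −0.54 ± 0.18 and LPAT2 at −0.42 ± 0.15, were also under 2-fold with repeats apart. Along the route, 1 gene each of the dehydrogenase and phosphatase steps passed, and none of the 3 acyltransferase genes between them did.

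None of the 5 diacylglycerol acyltransferases, which add the third acyl chain to form triacylglycerol, passed the rule of size, and their median was 0.18. The median turned negative with TEF1 (−0.13), BT (−1.71) or GAPDH (−0.28) alone and with the 7 r-prefixed reference genes together (−0.10). DGAT2 had 0.710, 0.581 and 0.728 in SAMPLE 4, against 1.09, 1.07 and 1.03 in SAMPLE 2, a change of −0.67 ± 0.18. DGAT3 had 0.695, 0.673 and 0.744 in SAMPLE 4, against 0.464, 0.478 and 0.482 in SAMPLE 2. The repeats of both genes were apart, in opposite directions. DGAT3 stood at 0.57 ± 0.08, just short of 1.5-fold and 7.22 times its error. DGAT1 was at 0.42 ± 0.26 with repeats apart, and DGAT5 at 0.18 ± 0.23 and DGAT4 at −0.08 ± 0.08 overlapped.

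The 4 genes that modify or activate fatty acids gave no call, and none of them exceeded 2 propagated SDs. Their median was 0.02, and it turned negative under 8 alternatives, namely TEF1, AT1, BT or GAPDH alone, the 7 r-prefixed reference genes together, and with repeat 2 or 3 of SAMPLE 4 or repeat 1 of SAMPLE 2 left out. The omega-6 desaturase O6FADes1, which adds a double bond to an acyl chain, had 0.543, 0.673 and 0.623 in SAMPLE 4, against 0.538, 0.702 and 0.618 in SAMPLE 2. The samples overlapped almost fully, at −0.01 ± 0.25. D6S, given in the tables as a delta 6 saturase, stood at 0.18 ± 0.32. The long-chain acyl-CoA synthetases, which activate fatty acids as CoA esters, stood at 0.06 ± 0.38 for LCS1 and −0.38 ± 0.25 for LCS2. The propagated SDs of these 4 genes were 0.25 to 0.38, and a 2-fold difference in LCS1 would have exceeded 2 of them.

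ADP-glucose pyrophosphorylase (given in the tables as glucose-1-phosphate adenylyltransferase) makes ADP-glucose, in plants the donor for starch. AGPase1 had 0.690, 0.673 and 0.638 in SAMPLE 4, against 0.365, 0.425 and 0.352 in SAMPLE 2. The samples were far apart, with AGPase1 at 1.76-fold in SAMPLE 4, a log2 change of 0.81 ± 0.16 that was under 2-fold. It was positive in 25 of 26 alternatives and −1.07 with BT alone. AGPase2 stood at −0.09 ± 0.11 with overlapping repeats, which put the middle of this pair at 0.36 (−1.52 with BT and −0.09 with GAPDH alone).

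NR, the nitrate reductase that turns nitrate into nitrite, was the only target higher in SAMPLE 4 by the rule of size. It had 0.327, 0.673 and 0.377 in SAMPLE 4, against 0.183, 0.142 and 0.145 in SAMPLE 2. All repeats of SAMPLE 4 were above those of SAMPLE 2, and repeat 2 of SAMPLE 4 stood far above the other two. That value is 1 over the factor of 1.49, since the highest NR value before normalization was in this repeat. NR was at 2.80-fold, a log2 change of 1.49 ± 0.59. Without repeat 2 of SAMPLE 4 the change was smaller and tighter, 1.17 ± 0.25, and still passed. This setting was chosen after seeing the data. Taking out the outlying repeat narrows the spread by itself, so the pass adds little to the call. NR did not pass in 5 of the 26 alternatives. It stood at 1.54 ± 0.78 without repeat 3 of both samples, at 1.04 ± 0.60 with GAPDH alone, at 1.21 ± 0.68 with the 7 r-prefixed genes and at 1.82 ± 0.98 with no reference, and it reversed to −0.39 ± 1.20 with BT alone. The nitrite transporter NAR1, which carries the product of that reaction, stood at −0.14 ± 0.15, which put the middle of the nitrate pair at 0.67 (−1.21 with BT alone).

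**Figure D2:**
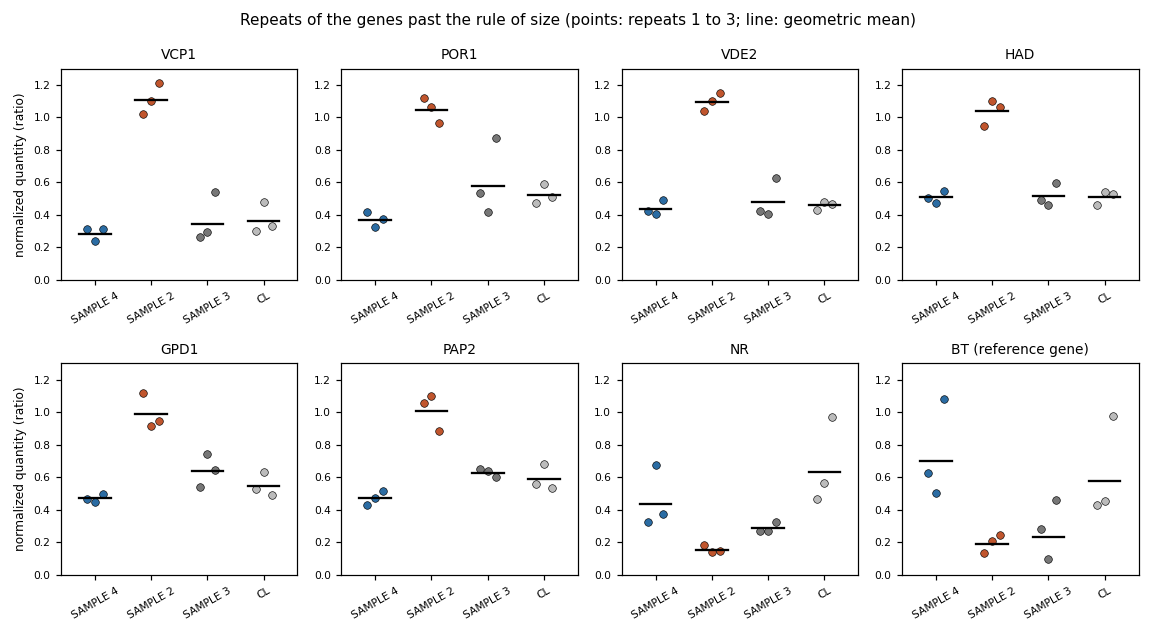
Normalized quantity (y axis, ratio, linear from 0) of the 7 targets past the rule of size and of reference gene BT in SAMPLE 4, SAMPLE 2, SAMPLE 3 and continuous light (CL). Points are the 3 repeats and lines their geometric mean; in each panel no repeat of SAMPLE 4 overlaps SAMPLE 2, and for NR repeat 2 of SAMPLE 4, at 0.673, stands above the other repeats of that sample.

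The reference genes were not all level between the samples. CYP and PAP1, which make up the factor, stood at 0.00 ± 0.06 each. Their changes cancel by construction, so this shows only that they kept level with each other. Actin ACT stood at −0.02 ± 0.19, alpha tubulin AT1 at 0.12 ± 0.32 and elongation factor TEF1 at 0.31 ± 0.23. Among these TEF1 had repeats apart. GAPDH, a glycolytic enzyme, had 0.678, 0.673 and 0.657 in SAMPLE 4, against 0.471, 0.498 and 0.500 in SAMPLE 2. Its change of 0.45 ± 0.05 was small and 8.39 times its error.

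UFP, of the ubiquitin family, had 0.581, 0.456 and 0.568 in SAMPLE 4, against 1.12, 0.878 and 0.821 in SAMPLE 2, a change of −0.81 ± 0.30. BT, a subunit of microtubules, had 0.625, 0.502 and 1.08 in SAMPLE 4, against 0.131, 0.210 and 0.245 in SAMPLE 2. BT passed the rule of size at 3.69-fold, a log2 change of 1.88 ± 0.74, with its repeats widely spread in SAMPLE 4. UFP and BT differed in opposite directions by more than most targets. A gene taken alone as reference shifts every target by the same amount, which was 0.81 for UFP, −1.88 for BT, −0.45 for GAPDH, −0.31 for TEF1, −0.12 for AT1 and 0.02 for ACT. Direction was kept by the 6 lower targets under each of the 11 alternatives of the reference and by NR under 10 of them. Among the other targets past 1.5-fold and 2 propagated SDs, the direction turned with UFP alone for ALAD, VDE1, MCT, GPAT and DGAT2. Every target with a smaller negative change turned as well, since the shift of 0.81 applied to all.

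**Figure D3:**
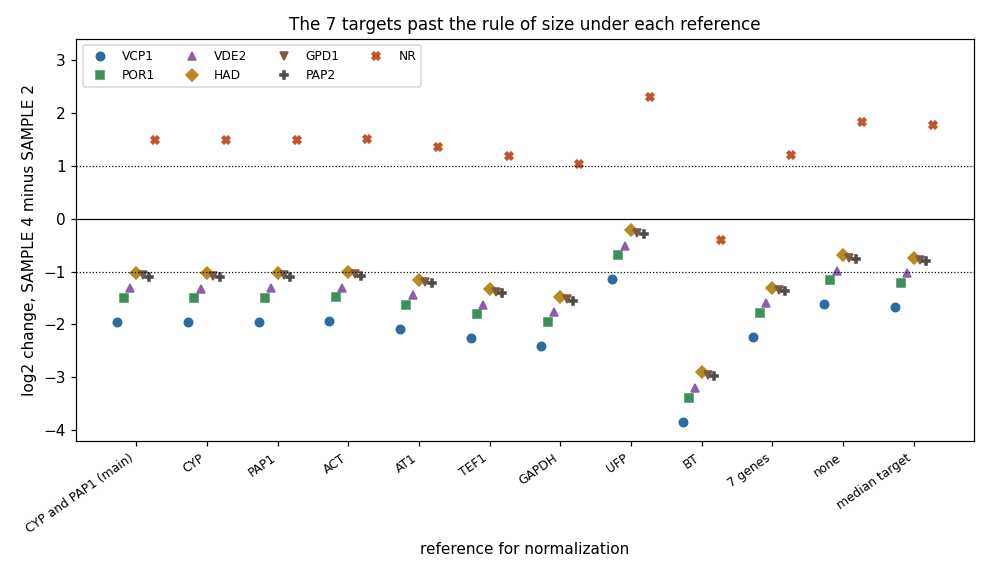
Log2 change (y axis, SAMPLE 4 minus SAMPLE 2) of the 7 targets past the rule of size under the main normalization and 11 alternatives (x axis), with dotted lines at 2-fold. VCP1 stays beyond 2-fold throughout, at −1.15 or lower, the other lower targets come within 2-fold with UFP, and NR falls below 0 with BT, at −0.39.

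Ratios between genes of one family do not depend on the reference, since the factor of a repeat cancels. Of the 22 pairs within 9 families, 14 (63.6%) had a ratio that differed between SAMPLE 4 and SAMPLE 2 by more than 2 propagated SDs with repeats apart. Of the single targets, 44.4% were lower and 11.1% higher by more than 2 propagated SDs. The share among pairs from different families was not computed, so whether 63.6% is particular to families is not known. Pairs within a family share genes, and the 14 fell in 6 families. The ratios are of quantities relative to each gene's own maximum, so only their difference between samples has a meaning.

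Among glycerol-3-phosphate dehydrogenases, the log2 ratio of GPD2 to GPD1 was 0.52, 0.59 and 0.51 in SAMPLE 4, against −0.80, −0.88 and −0.95 in SAMPLE 2. The shift toward GPD2 was 1.42 ± 0.08, the largest of the 22 pairs relative to its error, and that of GPD3 over GPD1 was 1.09 ± 0.17. In the phosphatidic acid phosphatases PAP3 gained on PAP2 by 1.11 ± 0.23, while PAP3 over PAP1 stood at 0.02 ± 0.14. In the de-epoxidases VDE1 gained on VDE2 by 0.70 ± 0.28.

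Among the diacylglycerol acyltransferases 7 of 10 pairs shifted, and DGAT2 lost ground to each of the other four. DGAT3 over DGAT2 had log2 ratios of −0.03, 0.21 and 0.03 in SAMPLE 4, against −1.23, −1.16 and −1.10 in SAMPLE 2, a shift of 1.23 ± 0.14. DGAT1 gained on DGAT2 by 1.09 ± 0.33, DGAT5 by 0.84 ± 0.26 and DGAT4 by 0.58 ± 0.21. DGAT3 also gained on DGAT4, by 0.65 ± 0.15. AGPase1 gained on AGPase2 by 0.91 ± 0.20, and KAR2 on KAR1 by 0.41 ± 0.12. No such shift was seen for ENR1 over ENR2 at 0.04 ± 0.11, LPAT2 over LPAT1 at 0.13 ± 0.25 or LCS1 over LCS2 at 0.44 ± 0.28.

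**Figure D4:**
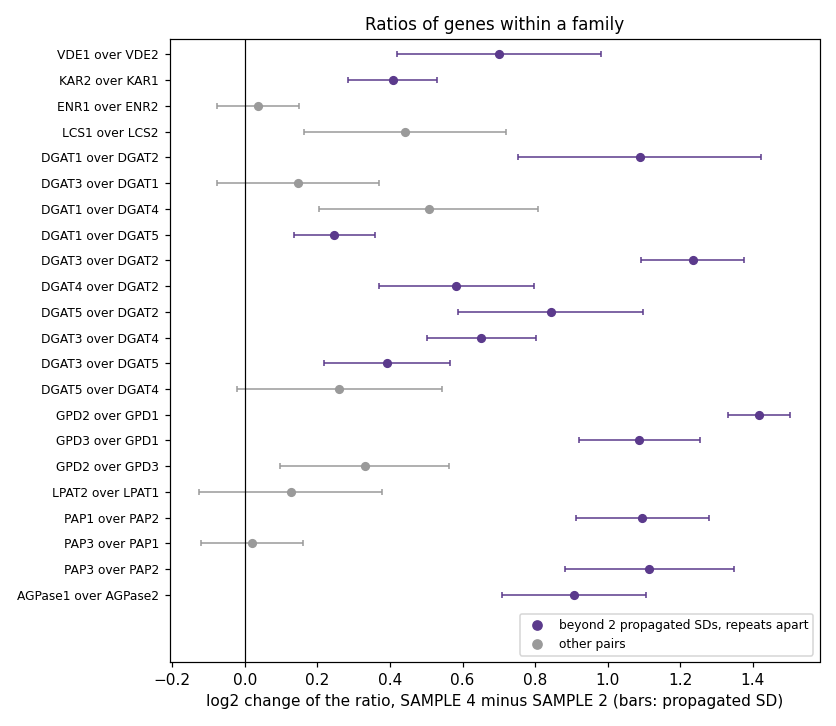
Log2 change of the ratio of gene pairs within a family (x axis, SAMPLE 4 minus SAMPLE 2; bars show the propagated SD), each pair written with the gene that gained in SAMPLE 4 first. The 14 pairs in purple are beyond 2 propagated SDs with repeats apart, up to GPD2 over GPD1 at 1.42, and the other 8 are in grey.

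Both levels were placed against the other samples of the study, SAMPLE 3 and continuous light. SAMPLE 4 was the lowest of the 4 samples and SAMPLE 2 the highest in 17 of the 36 targets, the 6 lower ones included. In 4 targets, DGAT1, AGPase1, BC and DGAT5, SAMPLE 4 was the highest and SAMPLE 2 the lowest. These orders are of means, and many steps were small. Among the 17, the step from SAMPLE 4 to the next sample exceeded 2 propagated SDs only for POR1, and for KAR2 it was 0.01 ± 0.21. Among the 4, only AGPase1 had any step between neighbours in the order beyond them. VCP1 averaged 0.288 ± 0.0435 in SAMPLE 4, 1.11 ± 0.0970 in SAMPLE 2, 0.365 ± 0.152 in SAMPLE 3 and 0.371 ± 0.0959 in continuous light (SD, n = 3 repeats). SAMPLE 2 stood apart from the other samples, and these did not differ from their neighbours in the order beyond 2 propagated SDs.

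VDE2 and HAD gave the same picture. VDE2 averaged 0.440 ± 0.0461 in SAMPLE 4, 1.10 ± 0.0558 in SAMPLE 2, 0.488 ± 0.123 in SAMPLE 3 and 0.459 ± 0.0252 in continuous light (SD, n = 3 repeats). HAD averaged 0.510 ± 0.0375 in SAMPLE 4, 1.04 ± 0.0800 in SAMPLE 2, 0.517 ± 0.0695 in SAMPLE 3 and 0.512 ± 0.0446 in continuous light. For both genes SAMPLE 2 was apart, and continuous light exceeded SAMPLE 4, its neighbour in the order, by only 0.06 ± 0.17 log2 for VDE2 and 0.00 ± 0.17 for HAD. GPD1 averaged 0.470 ± 0.0260 in SAMPLE 4, 0.991 ± 0.110 in SAMPLE 2, 0.643 ± 0.101 in SAMPLE 3 and 0.550 ± 0.0754 in continuous light. Between neighbours in the order, only the step from SAMPLE 2 to SAMPLE 3 exceeded 2 propagated SDs there, at 0.63 ± 0.28.

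POR1 and AGPase1 were spread over the samples in another way. POR1 averaged 0.372 ± 0.0448 in SAMPLE 4, 1.05 ± 0.0759 in SAMPLE 2, 0.609 ± 0.237 in SAMPLE 3 and 0.525 ± 0.0572 in continuous light (SD, n = 3 repeats). SAMPLE 4 was below continuous light by more than 2 propagated SDs, at −0.50 ± 0.23. SAMPLE 2 was above continuous light beyond them as well and by more, at 1.00 ± 0.19. From SAMPLE 3, with its widely spread repeats, SAMPLE 2 did not differ beyond 2 propagated SDs, at 0.85 ± 0.55. AGPase1 averaged 0.667 ± 0.0266 in SAMPLE 4, 0.380 ± 0.0390 in SAMPLE 2, 0.530 ± 0.0520 in SAMPLE 3 and 0.590 ± 0.0258 in continuous light. SAMPLE 4 exceeded continuous light by 0.18 ± 0.09 and SAMPLE 2 lay under SAMPLE 3, its neighbour in the order, by 0.48 ± 0.20. Against continuous light, SAMPLE 2 stood at −0.64 ± 0.16.

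NR averaged 0.459 ± 0.187 in SAMPLE 4, 0.156 ± 0.0227 in SAMPLE 2, 0.287 ± 0.0325 in SAMPLE 3 and 0.666 ± 0.266 in continuous light (SD, n = 3 repeats). SAMPLE 2 was the lowest and under SAMPLE 3 by 0.88 ± 0.26. The steps from SAMPLE 4 to SAMPLE 3, 0.61 ± 0.58, and from SAMPLE 4 to continuous light, −0.54 ± 0.78, were within 2 propagated SDs. PAP2 averaged 0.474 ± 0.0428 in SAMPLE 4, 1.01 ± 0.114 in SAMPLE 2, 0.629 ± 0.0230 in SAMPLE 3 and 0.590 ± 0.0779 in continuous light. Between neighbours in the order, only the step from SAMPLE 2 to SAMPLE 3 was beyond 2 propagated SDs. SAMPLE 4 against SAMPLE 3, not its neighbour, was also beyond them, at −0.41 ± 0.14.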

How the data were processed

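The submitters deposited 3 tables of 132 rows, 44 genes by 3 repeats, of SYBR Green real-time PCR on total RNA, per the labels. The non-normalized table holds a linear ratio to the highest of a gene's 12 values, and in the normalized table the authors corrected it by housekeeping genes, both per the file headers. The divisor was recomputed as the geometric mean of the CYP and PAP1 ratios, scaled to a geometric mean of 1, within 0.1% for 43 genes. The normalized MCT row equalled the factor, so MCT was taken as its own ratio over the factor. Mistyped row identifiers, 4 in number, occur in the non-normalized table (those of GPD2 and 1 of PAP3). They were matched by row position, which the factor bears out to 5.04e-06. The deposited fold table (test over control, per the file headers) gave the control column as the common divisor, and 393 of its 396 values match that ratio to 0.1%. No source used here names the instrument, its software or amplification efficiencies. Each gene's ratios fell on steps of 0.01 cycle at an amplification base of its own, 1.91 to 2.17, recovered here for the alternatives with a base of 2 or 1.9.

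Calculations used Python 3.11.15, numpy 2.4.6 and pandas 2.3.3, and were tested on simulated data. Values of the 3 repeats were averaged on the log2 scale, computed here from the deposited ratios. The rule of size asked for 2-fold and 2 propagated SDs. Named in full were targets past it, and those at 1.5-fold or more and beyond 2 propagated SDs. DGAT3, O6FADes1, BT, UFP and GAPDH are given by repeat in addition, chosen after their values were seen. Members, gene lists and rules were chosen with earlier results of these data known. Repeat numbers were not treated as pairs in the main calculation, and whether they pair the samples is not known. Deviations of the 36 targets from the sample mean were compared between SAMPLE 4 and SAMPLE 2 within each number. The correlations were 0.25, 0.06 and 0.47 for numbers 1, 2 and 3.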

Additional observations from a re-analysis of the deposited data

Results flagged for a closer look

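A gene is listed here when all 3 repeats of SAMPLE 4 lay on one side of all 3 repeats of continuous light and all 3 of SAMPLE 2 on the other. Of the 44 genes 5 met this, and the difference was not tested, since each condition had 1 sample and both samples are set against the same control. SAMPLE 4 was below and SAMPLE 2 above the control for POR1, PAP2, LPAT1 and ZE, with log2 changes, SAMPLE 4 minus SAMPLE 2, of −1.50, −1.10, −0.54 and −0.49. AGPase1 was above the control in SAMPLE 4 and below it in SAMPLE 2, a change of 0.81. Groups of 3 repeats are too small for a check of single outlying values, and none was made.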

How the results depend on the processing

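Among 812 values from 29 alternatives, 647 stayed within their error (counts: within 1.5 times), and 164 went beyond it. The remaining one is NR, the only called gene or ratio to change sign, at −0.39 with BT alone. Some of the 647 could not move, since MCT as deposited leaves every other gene unchanged. Single genes were followed only where past 1.5-fold and 2 propagated SDs, so sign changes of the other genes are not counted. Genes followed but not called changed sign in 9 more values (BC and AGPase1 with BT, ALAD, VDE1, MCT, GPAT and DGAT2 with UFP, and MCT from its deposited row, which counts under both settings that use it). Family ratios not called did so in 3. The cause of these moves was not tested beyond what a setting fixes: a change of reference shifts each target alike. The median target was moved by 0.81 with UFP, −1.88 with BT, −0.45 with GAPDH, −0.31 with TEF1, −0.12 with AT1, −0.28 with the 7 r-prefixed genes, 0.33 with no reference and 0.29 by centring on the median target. Counts of lower and higher targets (6 and 1 in the report) were 1 and 7 with UFP alone, 31 and 0 with BT, 11 and 0 with GAPDH, 9 and 0 with the 7 genes, 2 and 1 with no reference (the higher one being BC at 1.08 ± 0.52, not NR), 3 and 3 after centring, 3 and 1 with base 1.9, 11 and 3 at 1.5-fold, 1 and 0 at 3-fold, and 6 and 0 at 3 propagated SDs. With 1 repeat left out, lower targets ran from 4 to 6 and higher ones from 0 to 1, with 4 without repeat 1 of both samples and 0 higher without repeat 3 of both. Differences within repeat numbers, as a replicate block, left 6 lower and 1 higher. Of 208 list medians 20 changed sign. Of the 14 shifted family ratios, 12 to 14 stayed beyond 2 propagated SDs under the 6 alternatives run on them. Leaving out 1 repeat of 1 sample and MCT as deposited were chosen after seeing the data. No threshold cycles were used here, so limits of detection are unknown.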
